A study of Mus musculus with 2 samples.

Results

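The 10 genes described here belong to the synthesis and signalling of leukotrienes and prostaglandins: Alox5ap, Alox5, Lta4h, Ltb4r1, Pla2g4a, Pla2g7, Ptgs1, Ptgs2, Ptges and Ptges3. They were chosen by symbol, each symbol matched exactly 1 of the 32285 genes in the deposited matrix, and all 10 had UMIs (unique molecular identifiers, each counting 1 captured RNA molecule). The matrix is 1 droplet single-cell library of cells that the study calls osteal macrophages, or Omacs, in which cells of ovariectomized (OVX) mice carried hashtag 1 and cells of sham-operated mice carried hashtag 2. The mice were BALB/c females operated on at 10 weeks of age, 20 per condition, and their femurs and vertebrae were taken 4 weeks after surgery, with the marrow washed out of the femurs and the cells released by enzymes and sorted on CD11b, F4/80 and CD68. Cells of each condition were pooled before the run, so there is 1 pool per condition and no replicate. An effect of ovariectomy and a difference between the pools cannot be told apart, and no test was made. Every interval below is an exact 95% interval that covers counting error only. Listed as loaded were 1037 OVX and 1084 sham cells. The matrix holds more barcodes than that, 2349. Hashtag calls by HTODemux gave 1059 OVX and 981 sham cells, so OVX was the larger group by these calls and the smaller by the listed numbers. A rule on the share of hashtag UMIs gave 956 and 1166. The source of these differences was not tested. Levels are summed UMIs of a group of cells per 1000000 UMIs (CPM). They come from the 3' ends of transcripts and are compared between groups of cells for 1 gene, not between genes.

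Leukotrienes and prostaglandins are lipid mediators made from arachidonic acid. Cytosolic phospholipase A2, encoded by Pla2g4a, frees arachidonic acid from membranes. In the leukotriene branch, 5-lipoxygenase (Alox5) works with its activating protein FLAP (Alox5ap) to make leukotriene A4, and leukotriene A4 hydrolase (Lta4h) turns this into leukotriene B4, a strong attractant of neutrophils that acts through the receptor BLT1 (Ltb4r1). In the prostaglandin branch, the cyclooxygenases COX-1 (Ptgs1) and COX-2 (Ptgs2) make prostaglandin H2, which prostaglandin E synthases convert to prostaglandin E2, a regulator of bone formation and resorption. Ptges encodes the inducible membrane form of the synthase and Ptges3 the cytosolic form, also known as p23, a partner of the chaperone HSP90. By these roles Ltb4r1 is a receptor and not a synthesis gene, and Pla2g7 encodes an enzyme that hydrolyses platelet-activating factor (PAF) and some oxidized phospholipids.

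The 2349 barcodes formed 6 clusters, in a clustering from which these 10 genes and the related pathway genes were left out. In 4 clusters with 2000 cells in all, 15 of 19 neutrophil markers stood at 10 CPM or more, S100a8 at 112356 CPM, while 3 of 14 macrophage markers did, Cd68 at 62.8 CPM, Arg1 at 24.6 and Msr1 at 14.1. Of the defining macrophage markers, Adgre1 (F4/80) was at 2.23 CPM, Csf1r at 7.63, Mertk at 0.465 and C1qa at 0. The cells labelled as macrophages were therefore called neutrophil-like, and the clusters are named here by leading genes: Camp/Ltf (252 cells, the cluster with the highest level of the cycling genes Mki67 and Top2a among these 4), Retnlg (604 cells), Stfa2 (574 cells) and Jaml/Ccl4 (570 cells). A cluster of 210 cells had all 12 stromal markers at 10 CPM or more, led by Prg4 and Dcn, and was called stromal-like. The last cluster, of 139 cells, was led by Pf4, Ppbp, MHC class II genes and Arg1, mixed markers of several lineages, and stays unnamed as the Pf4/Arg1 cluster. This cluster also had 17 of 19 neutrophil markers at 10 CPM or more, S100a8 at 33428 CPM and S100a9 at 55428 CPM. By that rule stromal-like cells had 13 of 19. Of the 14 macrophage markers, 7 reached 10 CPM in the Pf4/Arg1 cluster, against 3 in neutrophil-like cells. Adgre1 was at 46.6 CPM there, Csf1r at 65.7 and Msr1 at 575, while Mertk (7.53) and C1qa (0.685) stayed under 10. Whether the Pf4/Arg1 levels of genes high in neutrophil-like cells come from its own cells or from RNA of neutrophil-like cells was not tested. The Pf4/Arg1 cluster holds 36 of the 43 barcodes with over 10% mitochondrial UMIs. Median UMIs per cell ran from 2657 in the Jaml/Ccl4 cluster to 19996.5 in stromal-like cells, so percentages of cells with a UMI are compared between groups after thinning each cell to 1000 UMIs. Numbers of cells with a UMI written as "80 of 210" are unthinned and carry the depth of their cluster. Thinning left out 171 shallower cells (136 neutrophil-like, 12 stromal-like and 23 of the Pf4/Arg1 cluster). Scrublet marked 1 barcode as a doublet and HTODemux called 78 as carrying both hashtags. Cluster boundaries moved with the settings. The adjusted Rand index with this clustering (1 for identical clusters) was 0.445 with 1000 variable genes, 0.491 with doublets removed and 0.535 to 0.782 with 5 other seeds. Over all settings the Pf4/Arg1 type of cluster held 62 to 139 cells and the neutrophil-like class 1887 to 2077. Levels per cluster below are those of this clustering alone.

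Promoter sequences are shown for Alox5 and Ltb4r1, which were high in neutrophil-like and near 0 in stromal-like cells, for Ptgs2, which had the opposite pattern, and for Ptgs1, which was present in both. They are the 250 bases before the RefSeq start site in build GRCm38.p6, 5' to 3' on the strand of the gene. The windows are chr6:116461179-116461428 (minus strand) for Alox5, chr14:55765712-55765961 (plus strand) for Ltb4r1, chr2:36230176-36230425 (plus strand) for Ptgs1 and chr1:150099781-150100030 (plus strand) for Ptgs2. Capitals mark matches, on either strand, to the letters GGGCGG (a GC box), GAGGAAG (a core of the kind bound by ETS factors) and TTGCGCAA (a palindrome of the kind bound by C/EBP factors).
Alox5: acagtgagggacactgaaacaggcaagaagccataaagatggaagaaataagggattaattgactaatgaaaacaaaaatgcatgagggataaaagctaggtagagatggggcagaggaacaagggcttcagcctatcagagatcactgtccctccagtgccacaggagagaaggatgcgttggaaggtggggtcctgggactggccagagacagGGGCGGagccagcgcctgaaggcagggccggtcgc
Ltb4r1: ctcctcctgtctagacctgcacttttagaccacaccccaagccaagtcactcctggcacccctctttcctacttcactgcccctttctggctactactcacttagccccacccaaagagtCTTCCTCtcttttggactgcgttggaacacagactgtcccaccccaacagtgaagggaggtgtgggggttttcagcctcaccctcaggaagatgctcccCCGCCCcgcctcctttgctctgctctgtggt
Ptgs1: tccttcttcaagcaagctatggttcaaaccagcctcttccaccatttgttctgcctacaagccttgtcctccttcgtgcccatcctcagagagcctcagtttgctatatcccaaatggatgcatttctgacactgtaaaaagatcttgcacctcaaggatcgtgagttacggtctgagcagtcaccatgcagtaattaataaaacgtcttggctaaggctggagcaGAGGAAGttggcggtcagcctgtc
Ptgs2: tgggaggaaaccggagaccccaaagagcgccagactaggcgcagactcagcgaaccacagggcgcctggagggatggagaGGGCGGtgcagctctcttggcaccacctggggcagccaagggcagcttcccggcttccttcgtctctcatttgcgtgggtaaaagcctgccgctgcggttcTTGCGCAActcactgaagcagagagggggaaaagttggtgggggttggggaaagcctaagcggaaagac

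RefSeq windows matched 9 of the 10 genes, with no entry for Alox5ap. GGGCGG was found in windows of 6 of these 9 genes and in 32.7% of all 32851 windows of this length. GAGGAAG was found in 2 genes, Ltb4r1 at position -130 and Ptgs1 at -24 counted from the start site, and in 10.6% of all windows. TTGCGCAA was found in 1, Ptgs2 at position -69, and in 0.164% of all windows. ACGTCA (a core of the cAMP response element) was in none of the 9 and in 6.47% of all windows, and TATAAA was in an alternative window of Pla2g4a and in 12.4% of all. A match of letters is a description and not a binding site. Bases after the start site were not searched, so absence from a window is not absence from the promoter. The Ptgs2 window overlaps an exon of Ptgs2os, and the Pla2g7 and Ptges3 windows overlap annotated exons of the same genes.

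In the annotation of GRCm38, Alox5ap lies at chr5:149264767-149288153 (plus strand), Alox5 at chr6:116410077-116461178 (minus), Lta4h at chr10:93453411-93484875 (plus) and Ltb4r1 at chr14:55765962-55768494 (plus). Pla2g4a and Ptgs2 are neighbours on chromosome 1, at chr1:149829618-149961290 (minus) and chr1:150100031-150108227 (plus), and Ptges and Ptgs1 lie on chromosome 2, at chr2:30889471-30929863 (minus) and chr2:36230426-36252272 (plus). Pla2g7 lies at chr17:43568098-43612201 (plus) and Ptges3 at chr10:128058954-128077272 (plus). Exons of Alox5ap, Pla2g7 and Ptgs1 overlap exons of Gm19719, 1700071M16Rik and Gm43621 on the opposite strand, and whether the counting used strand is not given in the sources used here. Ptges3 has a pseudogene, Ptges3-ps, that is not among the counted genes, so its counts could share reads with that copy.

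The leukotriene B4 genes fell into 2 patterns. Alox5ap, Alox5 and Ltb4r1 were far above their stromal-like level in each neutrophil-like cluster. Lta4h was not, and ran from 10.8 CPM in Retnlg to 38.4 in Camp/Ltf over the 6 clusters. Alox5ap, which encodes FLAP, stood at 1347 CPM (1300 to 1395) in the Camp/Ltf cluster, 1607 (1560 to 1656) in Retnlg, 1348 (1312 to 1385) in Stfa2 and 916 (872 to 961) in Jaml/Ccl4. It was 568 CPM (530 to 608) in the Pf4/Arg1 cluster and 19.0 (15.5 to 23.0) in stromal-like cells. Its level was thus lowest in Jaml/Ccl4 among the neutrophil-like clusters, and the intervals of Camp/Ltf and Stfa2 overlapped. After thinning, 62.6% (60.4 to 64.8) of neutrophil-like and 2.53% (0.825 to 5.79) of stromal-like cells had an Alox5ap UMI, against 84.4% and 32.9% without thinning.

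Alox5, the 5-lipoxygenase itself, was at 193 CPM (176 to 212) in Camp/Ltf, 144 (130 to 159) in Retnlg, 117 (107 to 129) in Stfa2 and 91.7 (78.4 to 107) in Jaml/Ccl4. Over OVX and sham cells together, these levels descended across the 4 clusters and no 2 of the intervals overlapped. Those of Stfa2 and Jaml/Ccl4 nearly met. Within OVX cells the levels were 165.9, 146.7, 111.8 and 106.6 CPM in the same order, and the intervals of all neighbouring clusters overlapped. Within sham cells they were 220.1, 147.1, 136.8 and 65.0 CPM, and of neighbouring clusters only Retnlg and Stfa2 overlapped. In the Pf4/Arg1 cluster Alox5 was at 65.7 CPM (53.3 to 80.3). In stromal-like cells 9 UMIs in 9 of 210 cells gave 1.64 CPM (0.752 to 3.12). Ltb4r1, the BLT1 receptor, was flatter, from 185 CPM (169 to 202) in Retnlg through 195 (182 to 209) in Stfa2 and 202 (184 to 222) in Camp/Ltf to 226 (204 to 249) in Jaml/Ccl4, where each level overlapped its neighbour in this order. It was at 97.2 CPM (81.9 to 115) in Pf4/Arg1 and at 2.37 (1.26 to 4.06) in stromal-like cells, from 13 UMIs.

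Lta4h, the hydrolase that completes leukotriene B4, was at 38.4 CPM (30.8 to 47.3) in Camp/Ltf, 10.8 (7.26 to 15.6) in Retnlg, 14.6 (11.1 to 18.9) in Stfa2 and 16.5 (11.1 to 23.5) in Jaml/Ccl4. It was at 30.8 CPM (22.5 to 41.2) in Pf4/Arg1 and 32.5 (27.9 to 37.7) in stromal-like cells. By summed UMIs, the Camp/Ltf, Pf4/Arg1 and stromal-like levels overlapped and stood above those of the other 3 clusters. The exception was an overlap of the Pf4/Arg1 and Jaml/Ccl4 intervals. The order depends on the weighting. With equal weight per cell Lta4h was at 35.5 CPM in Jaml/Ccl4, above Pf4/Arg1 (22.1) and close to stromal-like cells (37.6) and Camp/Ltf (40.2). Stfa2 (19.9) and Retnlg (12.3) stayed lowest. After thinning, 1.61% of neutrophil-like and 2.02% of stromal-like cells had an Lta4h UMI. Of the 811 neutrophil-like cells with an Alox5 UMI, 780 also had an Alox5ap UMI, where 684.1 would be counted if the genes were placed independently. For the 169 cells with Lta4h the number with Alox5ap was 148, where 142.6 would be. These numbers are unthinned and pool clusters of unequal depth, so an excess cannot be read as shared expression. By cluster, Alox5 with Alox5ap was counted in 171 cells against 167.4 in Camp/Ltf and 240 against 221.9 in Retnlg. It was in 255 against 229.2 in Stfa2 and 114 against 89.6 in Jaml/Ccl4. These counts are unthinned too, and cells within a cluster also differ in depth, so the same limit holds for them.

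**Figure D1:**
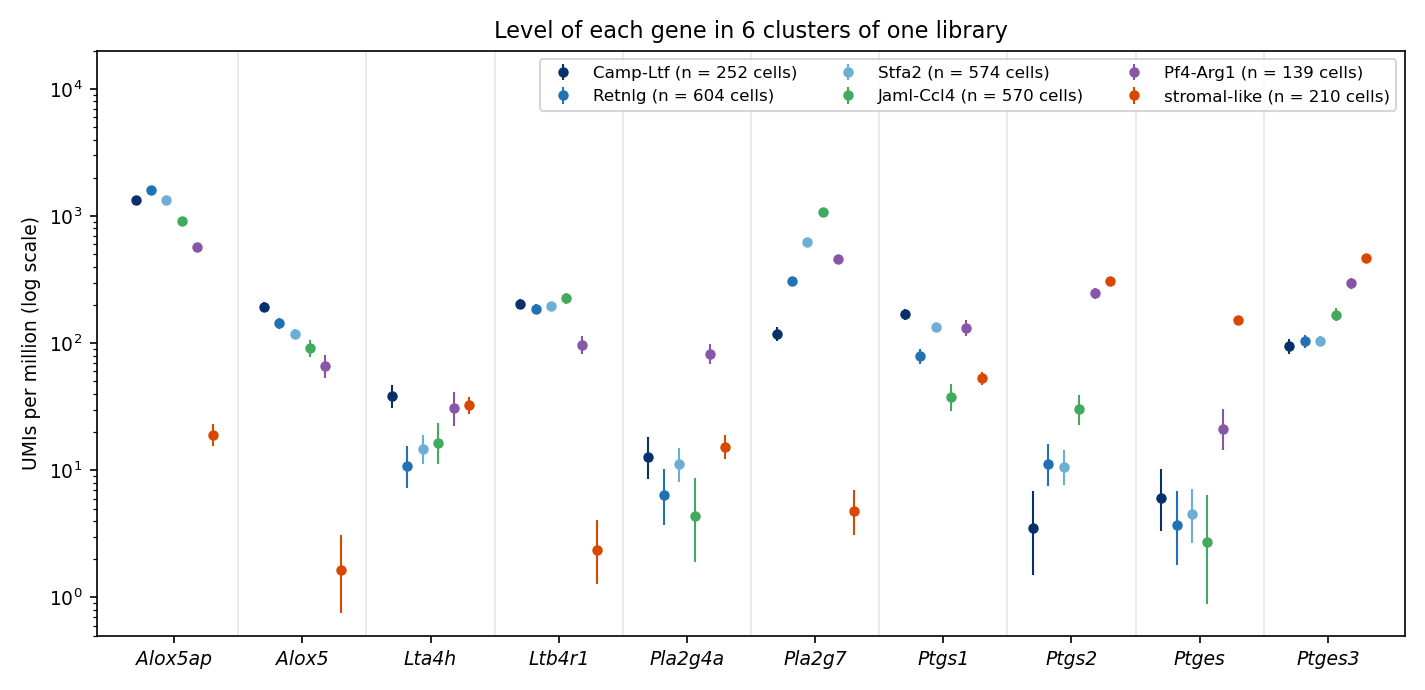
Level of each of the 10 genes (CPM, log axis) in the 6 clusters, with bars for exact 95% Poisson intervals; the 4 blue and green clusters are neutrophil-like. Alox5ap, Alox5, Ltb4r1 and Pla2g7 sit far above their stromal-like level in all 5 other clusters, while by summed UMIs Ptgs2, Ptges and Ptges3 are highest in stromal-like cells.

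Pla2g4a, the phospholipase A2 that supplies arachidonic acid, was lower in the 4 neutrophil-like clusters than in the Pf4/Arg1 cluster. Its level was 12.7 CPM (8.47 to 18.2) in Camp/Ltf, 6.36 (3.70 to 10.2) in Retnlg, 11.1 (8.07 to 14.9) in Stfa2 and 4.40 (1.90 to 8.66) in Jaml/Ccl4, and 15.3 (12.2 to 19.0) in stromal-like cells. The Pf4/Arg1 cluster stood apart at 82.9 CPM (68.8 to 99.0), from 121 UMIs in 47 of 139 cells (6.03% of cells after thinning). Without the barcodes over 10% mitochondrial it was 84.6 CPM there.

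Over OVX and sham cells together, Pla2g7, the PAF acetylhydrolase, differed in level between all 4 neutrophil-like clusters. It stood at 119 CPM (105 to 134) in Camp/Ltf, 310 (289 to 331) in Retnlg, 623 (599 to 648) in Stfa2 and 1069 (1022 to 1118) in Jaml/Ccl4, with no 2 intervals overlapping. This order is the reverse of that of Alox5 over both conditions together, an order whose neighbouring intervals overlapped within OVX cells. The clusters differ in their mix of conditions, with 438 OVX and 106 sham cells in Stfa2 and 149 and 380 in Retnlg. Among sham cells without barcodes over 10% mitochondrial, Pla2g7 was at 216 CPM (195 to 240) in Retnlg and 214 (175 to 260) in Stfa2, which overlap. Among such OVX cells it was at 564 (512 to 619) and 686 (658 to 714). Pla2g7 was at 458 CPM (424 to 494) in Pf4/Arg1, where 1 cell held 86 of 669 UMIs, and at 4.75 (3.10 to 6.96) in stromal-like cells.

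COX-1 was found in both cell classes and COX-2 mainly in stromal-like and Pf4/Arg1 cells. Ptgs1, which encodes COX-1, the constitutive form, was at 169 CPM (153 to 187) in Camp/Ltf, 79.3 (69.0 to 90.7) in Retnlg, 134 (122 to 145) in Stfa2 and 37.9 (29.5 to 48.0) in Jaml/Ccl4, and at 131 (114 to 151) in Pf4/Arg1 and 53.0 (47.1 to 59.4) in stromal-like cells. By summed UMIs the Jaml/Ccl4 level was thus nearer to the stromal-like than to the other neutrophil-like levels. With equal weight per cell this did not hold: Ptgs1 was at 22.3 CPM in Jaml/Ccl4, 61.0 in Retnlg and 62.9 in stromal-like cells. Ptgs2, which encodes COX-2, the inducible form, was at 3.49 CPM (1.51 to 6.88) in Camp/Ltf, 11.2 (7.57 to 16.0) in Retnlg, 10.6 (7.64 to 14.3) in Stfa2 and 30.2 (22.8 to 39.3) in Jaml/Ccl4. It reached 247 CPM (222 to 274) in Pf4/Arg1 and 311 (296 to 326) in stromal-like cells.

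Ptgs2 was concentrated in few cells. It was seen in 80 of 210 stromal-like cells, 1 of which held 211 of the 1702 UMIs, and 8 cells held 50% or more of them. Without that cell the stromal-like level was 275 CPM. In the Pf4/Arg1 cluster 31 of 139 cells had the gene, and 5 of them held 50% or more of its 361 UMIs. With equal weight per cell the order of these 2 clusters turned, to 384 CPM in Pf4/Arg1 and 357 in stromal-like cells. In neutrophil-like cells 75 of 2000 cells had Ptgs2, with at most 10 UMIs in 1 cell. After thinning, the share of cells with Ptgs2 was 14.1% in stromal-like, 13.8% in Pf4/Arg1 and 1.45% in neutrophil-like cells.

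The prostaglandin E synthases were higher in stromal-like cells. Ptges, the membrane synthase, was at 153 CPM (143 to 164) there, in 129 of 210 cells (13.1% after thinning, against 0.536% of neutrophil-like cells), and between 2.75 CPM in Jaml/Ccl4 and 6.11 in Camp/Ltf in the neutrophil-like clusters, whose intervals overlapped. It was at 21.2 CPM (14.4 to 30.1) in Pf4/Arg1, where 1 cell held 14 of 31 UMIs. Ptges3, or p23, was found in every cluster, from 95.1 CPM (82.9 to 109) in Camp/Ltf through 103 (91.4 to 116) in Retnlg and 104 (94.5 to 115) in Stfa2 to 168 (150 to 188) in Jaml/Ccl4, 296 (269 to 325) in Pf4/Arg1 and 464 (446 to 483) in stromal-like cells. The first 3 of these overlapped and the others did not. Of the 80 stromal-like cells with Ptgs2, 54 also had Ptges, where 49.1 would be counted if the genes were placed independently, again without thinning.

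**Figure D2:**
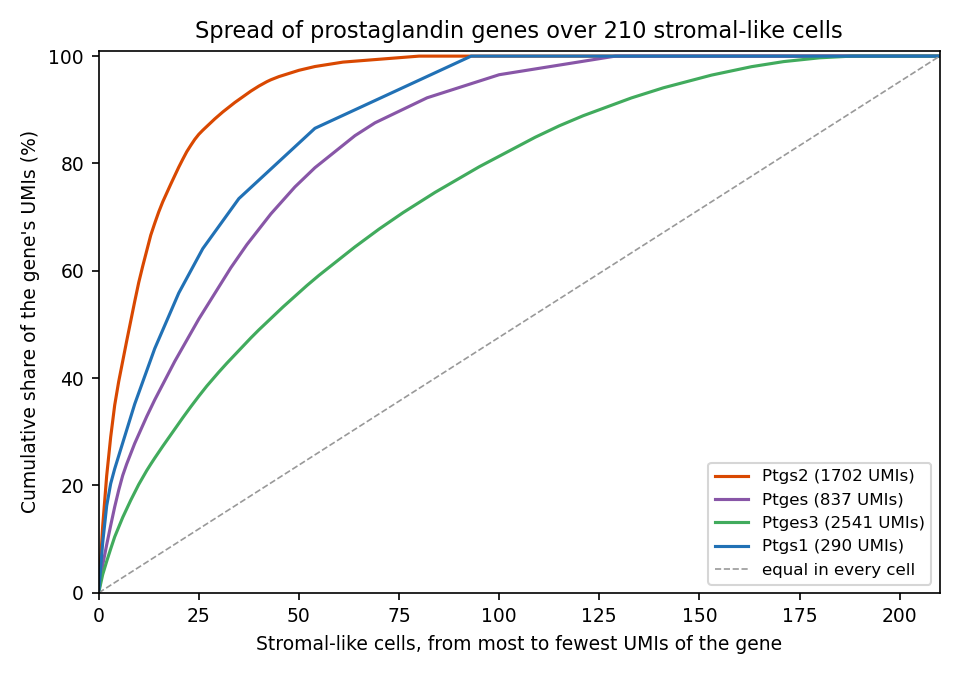
Cumulative share of the UMIs of 4 prostaglandin genes (vertical axis, percent) over the 210 stromal-like cells ranked from most to fewest UMIs of that gene (horizontal axis). The top 10% of cells by rank held 80.8% of Ptgs2, 57.2% of Ptgs1, 45.8% of Ptges and 32.6% of Ptges3 UMIs. The dashed line is an equal number of UMIs in every cell, without scaling for the depth of a cell. The genes differ in total UMIs (290 for Ptgs1, 2541 for Ptges3), so these shares do not rank the genes.

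Between the classes, 5 of the 10 genes were 2-fold or more higher in neutrophil-like than in stromal-like cells and 3 were 2-fold or more lower. Over the 8506 genes that reached 10 CPM in neutrophil-like or stromal-like cells, 19.5% were higher and 52.9% lower by this rule, and the median log2 ratio was -1.20, against 0.16 for the 10 genes. Alox5ap was 70.5-fold (58.1 to 86.3) higher, Alox5 82.6-fold (43.4 to 181), Ltb4r1 84.0-fold (49.0 to 158) and Pla2g7 108-fold (73.6 to 165). Ptgs1 was 2.10-fold (1.85 to 2.40) higher from summed UMIs and 1.32-fold with every cell weighted equally, which takes it below 2-fold. On the other side, Ptges was 35.0-fold (26.1 to 48.0), Ptgs2 24.8-fold (20.8 to 29.7) and Ptges3 4.11-fold (3.84 to 4.41) higher in stromal-like cells. Lta4h, 1.70-fold (1.39 to 2.09), and Pla2g4a, 1.68-fold (1.24 to 2.28), were higher in stromal-like cells by less than 2-fold. For Pla2g4a this passed 2-fold in favour of stromal-like cells when cells were weighted equally, at a neutrophil-like to stromal-like ratio of 0.3004.

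Free RNA in the droplets gives a floor against which the low levels can be read. Of the neutrophil markers and the added gene Ptprc, 15 stood at 100 CPM or more in neutrophil-like cells. Ptprc was among them and Hdc, at 91.3 CPM, was not. These 15 were found in stromal-like cells at a median of 1.17% of their neutrophil-like level (0.648% to 48.3%, the highest being Lcn2). The stromal-like levels of Alox5ap (1.42% of the neutrophil-like level), Alox5 (1.21%), Ltb4r1 (1.19%) and Pla2g7 (0.926%) lay at about this median. Expression of these genes in stromal-like cells cannot be told apart from background at such levels, and the source of these UMIs was not tested. In the other direction, 8 stromal markers were in neutrophil-like cells at a median of 0.549% (0.248% to 1.11%) of their stromal-like level. Ptgs2 (4.04%) and Ptges (2.86%) were above that range, and Ptges3 was at 24.3%.

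**Figure D3:**
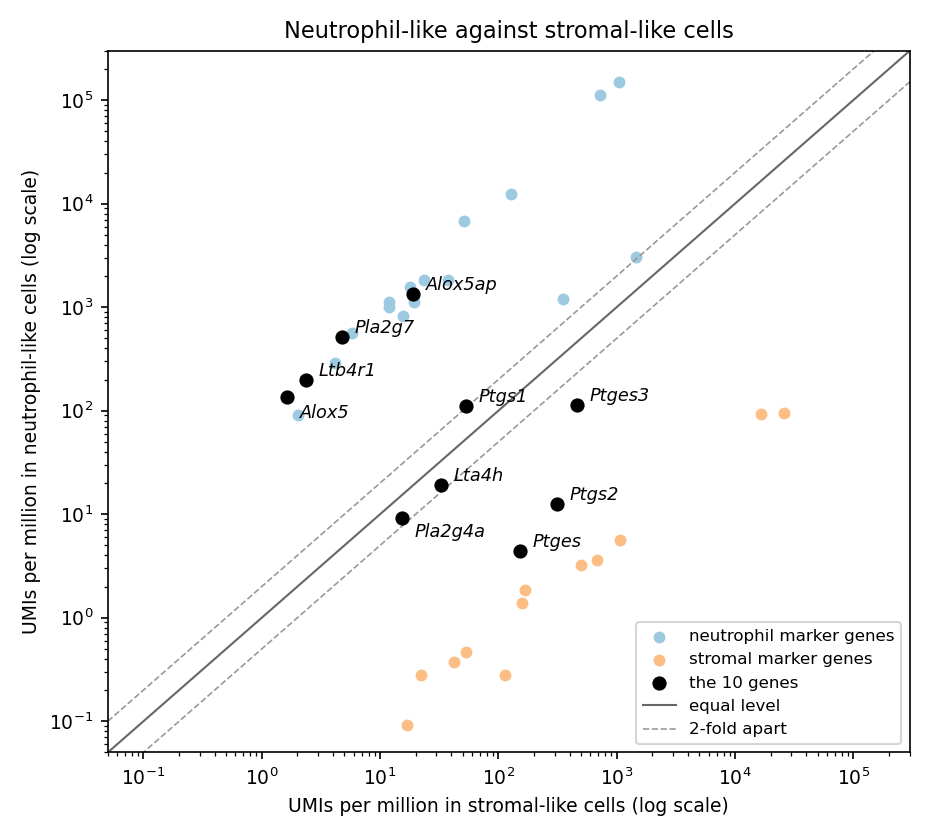
Level of the 10 genes (black) in stromal-like cells (horizontal) and neutrophil-like cells (vertical), both in CPM on log axes, with the neutrophil markers and Ptprc in blue and the stromal markers in orange. Alox5ap, Alox5, Ltb4r1 and Pla2g7 lie among the neutrophil markers and Ptgs1, at 2.10-fold, just above the upper dashed 2-fold line. Lta4h and Pla2g4a lie between the dashed lines, and Ptgs2, Ptges and Ptges3 below the lower one.

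OVX and sham were compared in the 975 OVX and 855 sham neutrophil-like cells that HTODemux assigned to 1 hashtag. Pla2g7 was the one gene of the 10 past 1.5-fold: it stood at 691 CPM (671 to 713) in OVX and 286 (270 to 304) in sham cells, 2.41-fold (2.26 to 2.58) higher in OVX. Of the 8 members that reached 10 CPM in OVX or sham cells, 1 was higher and 0 were lower by this rule, against 7.42% higher and 7.37% lower of 5536 genes. The median log2 ratio was -0.16 for the 8 and -0.06 for all.

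Pla2g7 was higher in OVX cells, with an interval that left out 1, in 3 of the 4 clusters by HTODemux and in the fourth too by another hashtag rule (80% of at least 10 hashtag UMIs). In Stfa2 cells it was 686 CPM in OVX against 211 in sham, a ratio of 3.24 (2.66 to 3.99), in Retnlg cells 564 against 216, a ratio of 2.60 (2.26 to 3.005), and in Jaml/Ccl4 cells 1233 against 805, a ratio of 1.53 (1.39 to 1.69). In Camp/Ltf cells it was 131 against 110, and the interval of the ratio, 0.914 to 1.55, included 1, whereas by the other hashtag rule it was 160 against 111, a ratio of 1.44 (1.11 to 1.86). Over 15 alternatives the ratio ran from 2.505 to 3.82 in Stfa2 and from 1.46, under 1.5-fold, to 2.40 in Jaml/Ccl4. After thinning, 48.9% (44.1 to 53.8) of OVX and 15.9% (8.72 to 25.6) of sham Stfa2 cells had a Pla2g7 UMI, and 65.6% (59.7 to 71.1) and 43.8% (37.2 to 50.7) of Jaml/Ccl4 cells. The clusters themselves differed in size between the conditions, with 438 OVX and 106 sham cells in Stfa2, 149 and 380 in Retnlg, 300 and 246 in Jaml/Ccl4, and 88 and 123 in Camp/Ltf. With equal weight for each cluster the ratio was 1.95, and with the other hashtag rule it was 2.67. Median UMIs per cell were 6057 in OVX and 2490.5 in sham Stfa2 cells. The thinned shares compare them at equal depth, but only over cells with at least 1000 UMIs. These were 423 of 438 OVX and 82 of 106 sham Stfa2 cells, an unequal loss that applies to every thinned share of this cluster by condition.

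**Figure D4:**
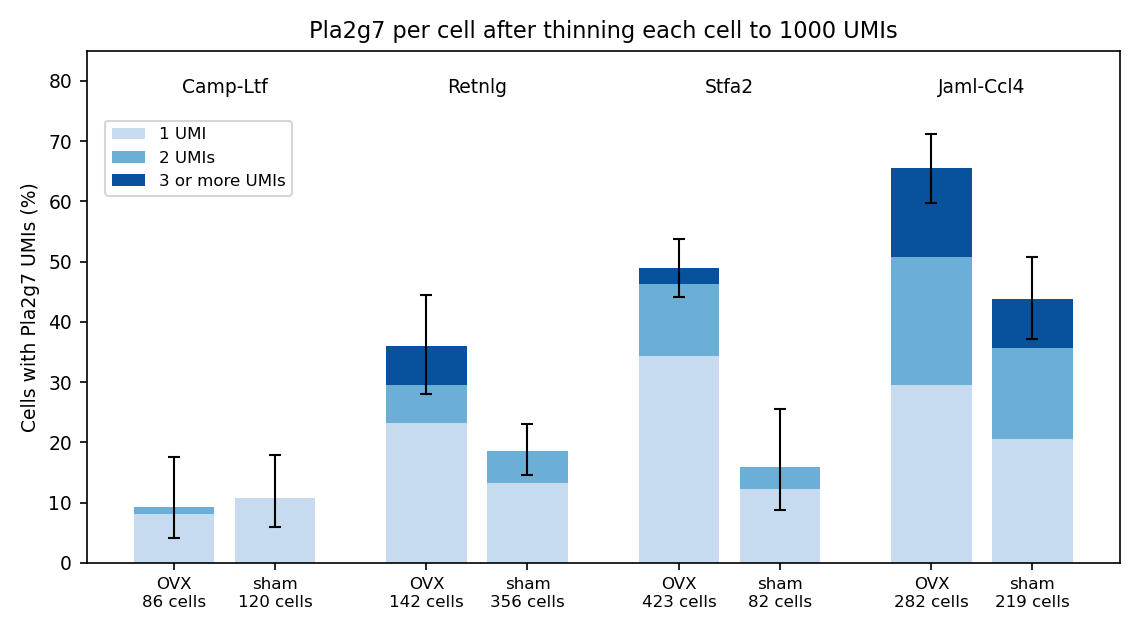
Percent of cells with 1, 2, or 3 or more Pla2g7 UMIs after thinning each cell to 1000 UMIs, for OVX and sham cells of the 4 neutrophil-like clusters; black bars are exact 95% Clopper-Pearson intervals of the share with any UMI. The OVX share is above the sham share in Retnlg, Stfa2 and Jaml/Ccl4 cells and the shares overlap in Camp/Ltf cells.

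The leukotriene B4 genes differed less. Alox5ap was at 1282 CPM in OVX and 1401 in sham cells, a ratio of 0.915 (0.884 to 0.947), Alox5 at 123 and 153, a ratio of 0.805 (0.722 to 0.898), Lta4h at 16.5 and 20.8, a ratio of 0.794 (0.587 to 1.08), and Ltb4r1 at 207 and 189, a ratio of 1.10 (1.00 to 1.20). With equal weight per cell the Alox5ap ratio moved to 0.988, near 1, and the Lta4h ratio moved the other way, to 0.630. The direction was not the same in every cluster. Alox5ap was lower in OVX cells of Camp/Ltf, at a ratio of 0.832 (0.767 to 0.901), and higher in those of Jaml/Ccl4, at 1.28 (1.15 to 1.42). In the Stfa2 cluster the ratio of Alox5ap was 0.862 (0.797 to 0.933) from summed UMIs and 1.15 with equal weight per cell, and after thinning 64.3% (59.5 to 68.9) of OVX and 54.9% (43.5 to 65.9) of sham cells had a UMI, so its direction there depends on the weighting. Alox5 was likewise lower in Camp/Ltf, at 0.754 (0.609 to 0.931), and higher in Jaml/Ccl4, at 1.64 (1.15 to 2.38).

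Ptgs1 differed in direction between clusters. It was at 105 CPM in OVX and 121 in sham cells over all 4 clusters, a ratio of 0.870 (0.771 to 0.982), which became 1.07 with equal weight per cell. In the Stfa2 cluster it was at 114 CPM in OVX and 269 in sham cells, from 378 and 130 UMIs, a ratio of 0.422 (0.345 to 0.519). In Jaml/Ccl4 it was at 51.9 against 17.7, from 57 and 12 UMIs, a ratio of 2.93 (1.55 to 6.001). After thinning, 10.2% (7.45 to 13.4) of OVX and 18.3% (10.6 to 28.4) of sham Stfa2 cells had a Ptgs1 UMI, and 2.13% (0.785 to 4.57) and 1.37% (0.283 to 3.95) of Jaml/Ccl4 cells, with overlapping intervals in both clusters. The Stfa2 difference kept its direction in all 15 alternatives, at ratios of 0.324 to 0.546, whereas the Jaml/Ccl4 ratio ran from 1.03 with doublets removed to 3.11. Ptgs2 in neutrophil-like cells was at 13.6 and 10.7 CPM, a ratio of 1.27 (0.866 to 1.89), and its direction turned with the clustering, to 0.557 in 1 that kept the 10 genes among the variable genes. Ptges3 was at 104 and 123, a ratio of 0.845 (0.749 to 0.953). Pla2g4a (8.27 and 9.91 CPM, from 50 and 39 UMIs) and Ptges (3.80 and 4.57 CPM, from 23 and 18 UMIs) were under 10 CPM in both conditions, and a difference was not detectable at this depth.

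**Figure D5:**
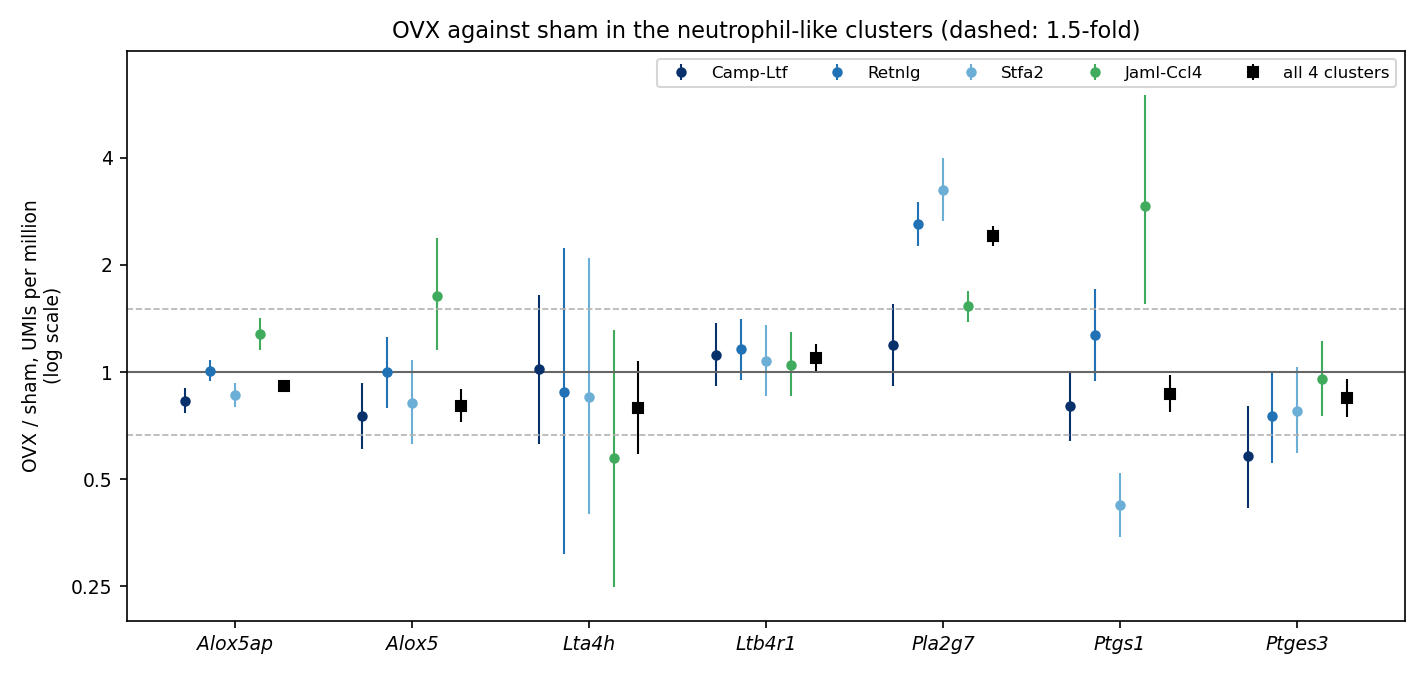
Ratio of OVX to sham CPM (log axis) with exact 95% intervals for 7 genes in the 4 neutrophil-like clusters (circles) and in all of them (squares); the dashed lines mark 1.5-fold in each direction, and Pla2g4a, Ptgs2 and Ptges are left out for low counts. Pla2g7 is the gene whose combined ratio, 2.41, lies beyond 1.5-fold, and Ptgs1 lies on opposite sides of 1 in the Stfa2 and Jaml/Ccl4 clusters.

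In stromal-like cells the hashtags assigned 38 cells to OVX and 54 to sham, and 112 of 210 to neither. Ptgs2 was at 272 CPM in OVX and 295 in sham cells, a ratio of 0.922 (0.801 to 1.06), with 1 OVX cell holding 160 of 352 UMIs and a ratio of 0.530 when cells were weighted equally. Ptges was at 165 and 168, a ratio of 0.982 (0.817 to 1.18). Ptges3 was at 432 and 580 CPM, a ratio of 0.745 (0.670 to 0.829). With the other hashtag rule, 28 and 113 stromal-like cells were assigned and the ratio of Ptges3 was 0.875. In the Pf4/Arg1 cluster Ptgs2 was at 128 CPM in 46 OVX and 320 in 72 sham cells, a ratio of 0.402 (0.298 to 0.533), and 1 sham cell held 61 of the 295 sham UMIs.

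A list of 70 further genes of the pathway was drawn up for comparison. Dpep2 matched more than 1 feature and was left out, 60 of the other 69 had UMIs, and 30 were at 10 CPM or more in either class, of which 17 were 2-fold or more higher in neutrophil-like and 10 in stromal-like cells, with a median log2 ratio of 1.44. Over all 8506 genes these shares were 19.5% and 52.9%, and the median -1.20. The highest ratios were those of chemoattractant and lipid receptors: Fpr2 at 716 CPM in neutrophil-like and 5.30 in stromal-like cells, 135-fold (94.1 to 202), Ptafr, the PAF receptor, at 293 and 2.92, 100.1-fold (61.5 to 175), and Fpr1 at 232 and 2.56, 90.6-fold (53.9 to 166). The lowest were Ptgis, the prostacyclin synthase, with 1 neutrophil-like UMI against 253 stromal-like UMIs (46.2 CPM), Slco2a1, a prostaglandin transporter, with 2 against 113, and the lipoxygenase Alox12 with 2 against 80. Their ratios of stromal-like to neutrophil-like CPM were 497 (88.4 to 19696), 111 (30.01 to 927) and 78.5 (21.04 to 660). Of the synthases that act on the same intermediates, Ltc4s, the leukotriene C4 synthase, had 17 UMIs in all cells, Tbxas1, the thromboxane synthase, was at 21.9 CPM in neutrophil-like and 0.365 in stromal-like cells, and Ptges2 was at 1.21 and 14.4. The other leukotriene B4 receptor, Ltb4r2, had 12 UMIs.

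Between OVX and sham neutrophil-like cells, 23 genes of that list were at 10 CPM or more, of which 5 were 1.5-fold or more higher in OVX and 2 lower, with a median log2 ratio of 0.10, against 7.42% higher, 7.37% lower and a median of -0.06 over all 5536 genes. The highest were Ggt1, at 35.4 and 9.91 CPM, a ratio of 3.57 (2.53 to 5.16), and Ggt5, at 53.4 and 31.0, a ratio of 1.72 (1.40 to 2.14), both gamma-glutamyltransferases that can cleave leukotriene C4, and Tbxas1, at 27.0 and 16.5, a ratio of 1.63 (1.22 to 2.21). The lowest were the prostacyclin receptor Ptgir, at 5.96 and 12.96, a ratio of 0.460 (0.291 to 0.718), Dicer1, an RNA-processing enzyme that can bind 5-lipoxygenase, at 6.29 and 11.7, a ratio of 0.538 (0.341 to 0.845), and Cotl1, which also binds it, at 559 and 656, a ratio of 0.853 (0.810 to 0.898). The PAF receptor Ptafr was at 277 and 323 CPM, a ratio of 0.860 (0.799 to 0.926), while the PAF-hydrolysing enzyme Pla2g7 was higher in OVX.

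The genes with the most similar pattern were sought by Pearson's r of log2(CPM + 1) over 12 groups, the 6 clusters by condition, among 4865 genes at 50 CPM or more in some group. The 12 groups come from 1 library, so r is a description without a test. Alox5ap was closest to Rac2, Treml2 and Cotl1 (r 0.993 to 0.994), Alox5 to Treml2, AB124611 and Ostf1 (0.994 to 0.996) and Ltb4r1 to Abcd2, Cd37 and Tbc1d2 (0.992 to 0.994). Pla2g7 was closest to Susd3 (0.995), Fcgr2b (0.989) and Il1b (0.979). Ptgs2 was closest to Arhgdia, Pdpn and Emp1 (0.975 to 0.980), Ptges to Tpm1, Eif6 and Fxr1 (0.977 to 0.988) and Ptges3 to Hnrnpk, Grpel1 and Bzw1 (0.969 to 0.974). Values were lower for Pla2g4a with Rgs10, Aph1a and Ccl17 (0.931 to 0.938), for Lta4h with Xist, Tpx2 and Lsm5 (0.891 to 0.916) and for Ptgs1 with Flna, Tecr and Rsu1 (0.897 to 0.931).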

How the data were processed

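The deposited UMI counts, whole numbers without normalization made by the authors with Cell Ranger (6.0.0 in the file header, 6.0.1 in the processing notes) on mm10, were used for 2349 barcodes and 32285 genes, 17681092 UMIs in all and 500 to 141565 per barcode. Hashtag counts stand in the same matrix, and HTODemux at a positive quantile of 0.99 (in Seurat 5.3.0 under R 4.3.3) gave 1059 OVX and 981 sham cells. Clustering used scanpy 1.11.5 and igraph 0.11.9 (Louvain, 2000 variable genes without the members and the pathway list, 30 components, 15 neighbors, 6 clusters). Levels are CPM with exact Poisson intervals, ratios have exact conditional Poisson intervals and shares exact Clopper-Pearson intervals, at 95%. Called genes were those past 2-fold (classes) or 1.5-fold (conditions) among genes reaching 10 CPM in 1 of the groups compared, with levels under 3 UMIs set to 3 UMIs for these calls. Interval and call code was tested on simulated data. The members, gene lists and markers were chosen with earlier results of these data known. Named are the members, the 3 highest and 3 lowest pathway genes of each comparison with the receptors and synthases a sentence turns on, the 3 nearest patterns and fixed markers. Alternatives were another hashtag rule, cell filters, doublet removal, clusterings, weightings and 50 CPM.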

Additional observations from a re-analysis of the deposited data

Results flagged for a closer look

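Of the 10 genes, 3 had OVX to sham ratios on opposite sides of 1 in different neutrophil-like clusters, each with an interval of counting error that left out 1. The share of all genes that do so is not given here, so this count cannot be read as a trait of these genes. The difference between clusters was not tested, since each condition is 1 pool. Alox5ap had ratios of 0.832 in the Camp/Ltf and 0.862 in the Stfa2 cluster and 1.28 in the Jaml/Ccl4 cluster. In the Stfa2 cluster its ratio was 1.15 with equal weight per cell, so its direction there depends on the weighting. After thinning to 1000 UMIs, 64.3% of OVX and 54.9% of sham Stfa2 cells had an Alox5ap UMI, with overlapping intervals. Alox5 had ratios of 0.754 in the Camp/Ltf cluster and 1.64 in the Jaml/Ccl4 cluster. Ptgs1 had ratios of 0.422 in the Stfa2 cluster and 2.93 in the Jaml/Ccl4 cluster, the latter from 57 and 12 UMIs and at 1.03 with doublets removed. After thinning, Ptgs1 was in 10.2% of OVX and 18.3% of sham Stfa2 cells and in 2.13% and 1.37% of Jaml/Ccl4 cells, with overlapping intervals in both clusters. Alox5 was in 14.0% of OVX and 23.3% of sham Camp/Ltf cells after thinning and in 12.8% and 5.02% of Jaml/Ccl4 cells, with intervals that overlapped in the first cluster and not in the second.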

How the results depend on the processing

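The gene with a ratio past 1.5-fold between OVX and sham, Pla2g7, was the same in all 17 alternatives. Its ratio, recomputed in 16, ran from 1.95 (equal weight per neutrophil-like cluster) to 2.67 (the other hashtag rule). These are not all separate checks. With 8 clusters and with seed 4, the 2000 neutrophil-like cells and the median log2 ratio were those of the reported setting, and seeds 2 and 3 equalled each other in both. No gene was 1.5-fold or more lower in OVX in the reported setting. That count became 2 with the 10 genes kept among the variable genes (log2 ratios of -0.87 for Pla2g4a and -0.84 for Ptgs2), 1 with equal weight per cell (Lta4h, -0.67) and 1 with equal weight per neutrophil-like cluster (Pla2g4a, -0.66); the cause was not tested. Between the classes, 4 or 5 genes were higher and 3 or 4 lower, with 4 of each under equal weight per cell, and all 141 recomputed log2 ratios kept their sign. Between conditions 158 of 161 did, the exceptions being Ptgs1 with equal weight per cell (0.10) and Ptgs2 with the 10 genes kept among the variable genes (-0.84) and with clustering seed 1 (-0.55). Shares of cells with a UMI moved with the thinning in 33 of 40 recomputed values. The median log2 ratio of all genes between the classes was -1.20, and -1.05 with the 10 genes kept among the variable genes and -0.93 at 50 CPM. The ratios per cluster, the omission of barcodes over 10% mitochondrial and that of the stromal-like cell with the most Ptgs2 were added after seeing the data. No paired analysis was possible because each condition is 1 pool in 1 library, which also leaves no library to omit.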
